A study of Mus musculus with 11 samples.

Results

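The type I cadherins Cdh1, Cdh2, Cdh3 and Cdh4, the T-cadherin gene Cdh13 and the catenin genes Ctnna1, Ctnna2, Ctnnb1, Ctnnd1 and Ctnnd2 were examined in J-RGCs, a type of mouse retinal ganglion cell (RGC). These 10 genes were taken by symbol, as a family, out of 24421 genes in the count files. The family was proposed with earlier results of these data known. The libraries came from Tbr1 KO and WT mice of a mixed C57BL/6 and CD1 background at postnatal day 4 to 5, and Tbr1 encodes a T-box transcription factor. In both genotypes the J-RGCs were marked with green fluorescent protein by a transgenic line that labels this cell type, sorted by flow cytometry and lysed in pools of 100 cells. The labels name neither the promoter of that line nor the Tbr1 allele, nor do they say whether other cells of the animal also lacked Tbr1. The 6 Tbr1 KO libraries came from 4 animals (KO a to d, with a pair of pools each from KO a and KO b). The 5 WT libraries came from 4 animals (WT a to d, with a pair of pools from WT b). Pools of 1 animal were summed, so each comparison set 4 KO animals against 4 WT animals. Of the 10 members, 8 were detected and all 8 passed the filter on low counts, while Cdh1 and Cdh3 had 0 counts in all 11 libraries.

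Classical cadherins are transmembrane proteins that bind, in the presence of calcium, mostly to the same cadherin on a neighbouring cell. Inside the cell beta-catenin (Ctnnb1) binds the cadherin tail and alpha-catenins (Ctnna1, Ctnna2) link it to actin. The delta-catenin group (Ctnnd1, which encodes p120-catenin, and Ctnnd2) binds closer to the membrane and affects how long the cadherin stays on the surface. Cdh13 encodes an unusual member of the superfamily that is held in the membrane by a GPI anchor and has no catenin-binding tail. In the retina, N-cadherin (Cdh2) and R-cadherin (Cdh4) are known from tissue layering and axon growth. Beta-catenin also acts in the nucleus as the effector of canonical Wnt signalling.

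Reads counted over genes ranged from 15615581 to 34564970 in KO libraries and from 8609845 to 34718693 in WT libraries. Levels are given as CPM, read counts scaled to a common library size, after TMM normalisation of the animal sums, and no molecular identifiers were described, so counting floors cover counting error only. Tbr1 itself had 133, 145, 94.2 and 106 CPM in KO animals a to d, against 193, 155, 166 and 165 CPM in WT animals a to d. Every KO animal lay below every WT animal, with a log2 fold change of -0.50 ± 0.15 (SE) and an edgeR adjusted p (Benjamini-Hochberg) of 0.369. The removed part of the gene is not given by the labels, so these counts do not check the genotype. The 16 pan-RGC markers summed to between 16371 and 18330 CPM in KO animals and between 15883 and 18321 CPM in WT animals. Nefl was the largest part of that sum, at 6121 CPM on average in KO animals and 5030 CPM in WT animals. Of the 15 tested pan-RGC markers 6 had an unadjusted edgeR p under 0.05 (40.0%, beside 7.09% of all tested genes) and none passed. Pou4f2, Thy1, Pou4f1 and Isl1 were on the lower side (log2 fold changes of -0.79, -0.40, -0.40 and -0.40) and Nefl and Nefm on the higher side (0.28 and 0.44). Jam2, the gene from which J-RGCs take their name, averaged 107 ± 21.5 CPM in KO animals and 528 ± 85.6 CPM in WT animals (SD, n = 4 each).

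Photoreceptor markers set one animal apart. The 17 genes summed to 65.4, 292, 1187 and 320 CPM in KO animals a to d, against 73.6, 103, 129 and 351 CPM in WT animals a to d. KO c was therefore above every other animal, and Opn1mw was at 0 in all of them. The sums of the 2 genotypes overlapped, but all 14 tested photoreceptor markers had a positive log2 fold change (median 1.955), beside 6967 of all 13957 tested genes. None passed in edgeR. An unadjusted edgeR p under 0.05 was found for 1 (7.14%, beside 7.09% of all tested genes). Another 1 lay above the WT animals without overlap (7.14%, beside 2.58%). The part of photoreceptors in the members' values was not tested. Below, the fit without KO c is given for Cdh4, Cdh13 and Ctnnd2. Other results are not shown for that fit alone, and some of them also changed in it.

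None of the 8 tested members passed in edgeR (quasi-likelihood test, Benjamini-Hochberg adjusted p under 0.05 over all 13957 tested genes). In that fit 40 genes (0.287%) were called, 0.086% of all tested genes as higher and 0.201% as lower. At an unadjusted p under 0.05 there were 3 members, Cdh4 on the lower side and Cdh13 and Ctnnd2 on the higher side, a share of 37.5% where all tested genes gave 7.09% (3.4% higher and 3.7% lower). DESeq2 called 2 of the 8 (Cdh4 and Cdh13), where it called 156 of 13896 genes over the whole table. Limma voom with the animal as a random block called the same 2 members, where it called 76 of 13829 genes. KO and WT animals did not overlap in 2 of the 8, again Cdh4 and Cdh13, against 5.06% of all tested genes (2.58% with every KO animal above and 2.48% with every KO animal below). The median log2 fold change of the 8 was 0.19, beside -0.00071 over all tested genes. Fewer cells of a type and less RNA per cell cannot be told apart in such pools.

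Cdh4, which encodes R-cadherin, had the smallest p of the members, with every KO animal below the WT animals. Its level was 193, 246, 195 and 264 CPM in KO animals a to d, against 359, 332, 339 and 346 CPM in WT animals a to d. The groups did not overlap, and the WT animals sat closer together than the KO animals. The means were 224 ± 35.9 CPM in KO animals and 344 ± 11.6 CPM in WT animals (SD, n = 4 each). The log2 fold change was -0.62 ± 0.12 (SE), with a 95% interval of -0.88 to -0.35 that is not adjusted for the number of genes. Its edgeR adjusted p over all genes (Benjamini-Hochberg) was 0.0783, rank 51 of 13957. The gene covers chromosome 2, 179442431 to 179899373 on the plus strand of GRCm38, and no other gene of the GENCODE annotation shares exonic bases with it.

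Pools hold the same reads as the animal sums, so the Cdh4 values by pool are a description and not separate support. The 6 KO libraries ran from 167 to 266 CPM with a median of 221, and the 5 WT libraries ran from 299 to 357 CPM with a median of 340. Pools of the same animal differed by 0.17 to 0.32 on the log2 scale in the 3 animals with a pair of pools, which leaves out the spread between animals. Without KO c the log2 fold change of Cdh4 was -0.55, with an edgeR adjusted p (Benjamini-Hochberg) of 0.268. Adjusted p over the 8 fits that left out 1 animal ran from 0.0666 to 0.271. It was 0.000697 in DESeq2 and 0.0170 in limma voom with the animal as a random block, both after Benjamini-Hochberg adjustment.

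**Figure D1:**
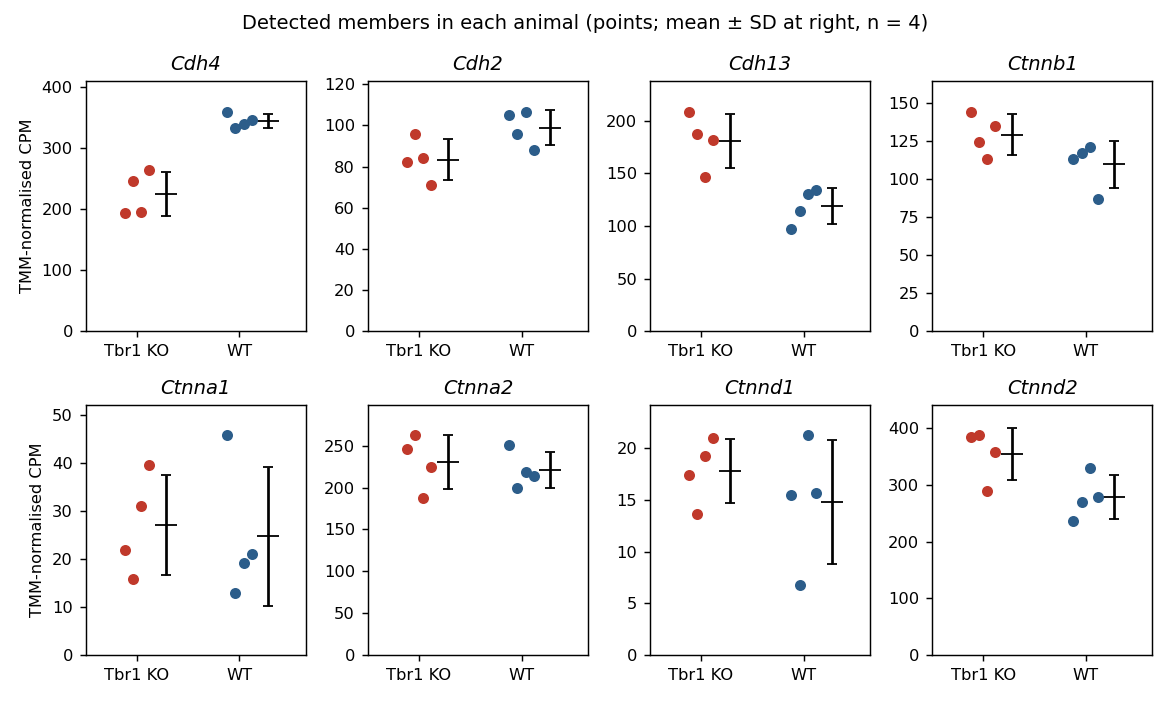
TMM-normalised CPM (y axis) of the 8 detected members in Tbr1 KO and WT animals, 1 panel per gene with an axis that starts at 0. Points are animals and the bars at their right show the mean ± SD (n = 4); the KO animals of Cdh4 all lie below and those of Cdh13 all above the WT animals, and the other 6 genes overlap.

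Cdh2, which encodes N-cadherin, was the only other detected type I cadherin. It had 82.3, 95.7, 84.3 and 71.1 CPM in KO animals a to d, against 105, 95.8, 107 and 88.3 CPM in WT animals a to d. The groups overlapped, since KO b stood above WT d. The log2 fold change was -0.25 ± 0.14 (SE), with a 95% interval of -0.55 to 0.06 and an edgeR adjusted p (Benjamini-Hochberg) of 0.813. The gene lies on chromosome 18.

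Cdh1 (E-cadherin) and Cdh3 (P-cadherin), known mostly from epithelia, were not counted in any library. Over the group, 3 counts would correspond to 0.0180 CPM in KO animals and 0.0231 CPM in WT animals, which is the level that 0 counts still allow if the submitters' annotation could count reads of these genes. That annotation is not named in the sources, so this was not checked. They are neighbours on chromosome 8, with 46053 bp between the end of Cdh3 (106510891 to 106557297) and the start of Cdh1 (106603351 to 106670246). In the files, 6095 of the 24421 genes had 0 counts in every library. Epcam, an epithelial adhesion gene of the marker lists, was counted in every animal, at 53.0 CPM on average in KO animals and 51.6 CPM in WT animals, while the keratin gene Krt5 was at 0.

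Cdh13 stood on the other side of the WT animals. Its level was 209, 187, 147 and 181 CPM in KO animals a to d, against 97.4, 114, 130 and 134 CPM in WT animals a to d. All 4 KO animals lay above all 4 WT animals, with KO c and WT d nearest to each other. The means were 181 ± 25.7 CPM in KO animals and 119 ± 16.9 CPM in WT animals (SD, n = 4 each). The log2 fold change was 0.61 ± 0.15 (SE), with an unadjusted 95% interval of 0.29 to 0.92, and the edgeR adjusted p over all genes (Benjamini-Hochberg) was 0.187, rank 99. The 6 KO libraries ran from 147 to 220 CPM and the 5 WT libraries from 96.8 to 134 CPM, and pools of 1 animal differed by 0.13 to 0.22 on the log2 scale. Without KO c the log2 fold change was 0.70, with an edgeR adjusted p (Benjamini-Hochberg) of 0.162. DESeq2 gave an adjusted p of 0.0127 and limma voom with the animal block 0.0445, also after Benjamini-Hochberg adjustment. The gene spans chromosome 8, 118283733 to 119324921 on the plus strand, with no exonic overlap with another annotated gene.

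Because Cdh4 and Cdh13 lay on opposite sides without overlap, their ratio within an animal had to separate the genotypes. It needs no scaling between libraries. Per kb of exon, Cdh13 had 0.697, 0.492, 0.486 and 0.444 times the level of Cdh4 in KO animals a to d. The same ratio was 0.175, 0.222, 0.248 and 0.251 in WT animals a to d. The lowest KO ratio was thus above the highest WT ratio. This ratio was formed after the values were known and is given as a description.

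**Figure D2:**
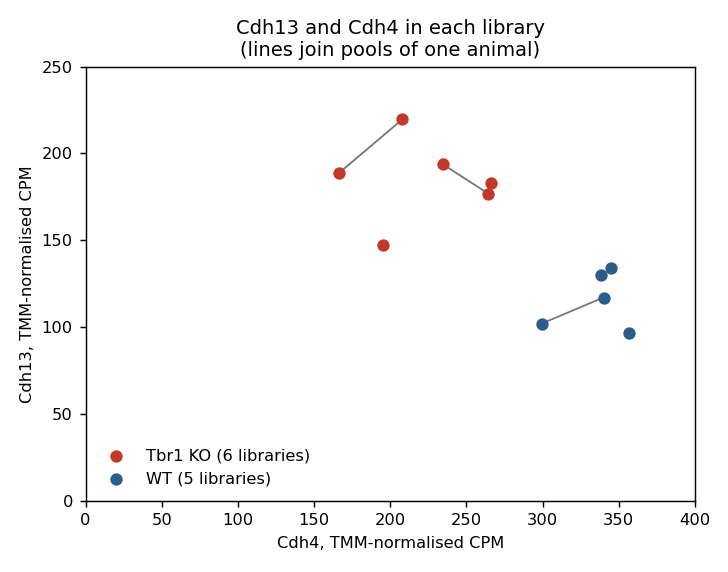
TMM-normalised CPM of Cdh13 (y axis) against Cdh4 (x axis) in each library, 6 from Tbr1 KO and 5 from WT animals, with lines joining pools of the same animal. The KO libraries lie at 167 to 266 CPM of Cdh4 and 147 to 220 CPM of Cdh13, to the left of and above the WT libraries on both axes.

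Summed markers of amacrine and horizontal cells also separated the genotypes, with none of these markers past the edgeR test over all genes. The 10 amacrine markers summed to between 320 and 346 CPM in KO animals and between 262 and 289 CPM in WT animals, without overlap. Most of that sum was Pax6, at 279 CPM on average in KO animals and 234 CPM in WT animals, a gene that ganglion cells express as well. Other members of that list lay on both sides: Slc6a9 averaged 23.1 CPM in KO animals and 10.1 CPM in WT animals, Meis2 8.66 CPM in KO animals and 1.78 CPM in WT animals, and Gad2 8.53 CPM in KO animals and 18.0 CPM in WT animals, each with overlapping animals. Tfap2b averaged 10.6 CPM in KO animals and 6.52 CPM in WT animals, and the other 5 (Tfap2a, Gad1, Slc32a1, Chat and Slc18a3) were at 1.31 CPM or lower on average in both. The 6 horizontal markers, of which Tfap2b is also on the amacrine list, summed to between 104 and 142 CPM in KO animals and between 51.9 and 85.4 CPM in WT animals. That sum was mostly Sept4, at 73.7 CPM on average in KO animals and 42.3 CPM in WT animals, and Calb1, at 30.00 CPM in KO animals and 15.01 CPM in WT animals, both without overlap. All 5 tested horizontal markers had a positive log2 fold change, beside 6967 of all 13957 tested genes. For Onecut1, Prox1 and Tfap2b the SE was larger than the log2 fold change (1.62 ± 1.75, 0.94 ± 1.58 and 0.70 ± 1.02), and the animals overlapped. Lhx1 was at 0 in all animals, and Onecut1 reached at most 1.27 CPM in KO animals and 0.581 CPM in WT animals. Sums of the 18 Müller and progenitor markers overlapped, at 737 to 1125 CPM in KO animals and 641 to 849 CPM in WT animals. Of the 17 tested, 2 passed, beside 0.287% of all tested genes. These were Clu and Dkk3, both higher (edgeR Benjamini-Hochberg adjusted p = 0.0465 and 0.0495). Without overlap, 2 of the 17 lay above the WT animals (Clu and Dkk3) and 2 below (Sfrp2 and Gpr37), beside 2.58% above and 2.48% below over all tested genes. Sfrp2 and Gpr37 had log2 fold changes of -1.44 and -0.70 (edgeR Benjamini-Hochberg adjusted p = 0.314 and 0.0531). Sums also overlapped for the 10 bipolar markers, at 719 to 956 CPM in KO animals and 841 to 1195 CPM in WT animals, a list that shares Isl1 with the pan-RGC markers. The 23 markers of vascular cells, astrocytes, microglia, pigment epithelium and red cells summed to 81.3 to 90.2 CPM in KO animals and 59.9 to 131 CPM in WT animals. The part of these cells in the Cdh4 and Cdh13 values was not tested.

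Ctnnd2, the neuronal delta-catenin, was the catenin with the smallest p. It had 385, 387, 289 and 357 CPM in KO animals a to d, against 237, 270, 330 and 278 CPM in WT animals a to d. KO c lay below WT c, so the groups overlapped, and the 3 other KO animals stood above all WT animals. The log2 fold change was 0.35 ± 0.13 (SE) with an unadjusted 95% interval of 0.06 to 0.63, and the edgeR adjusted p over all genes (Benjamini-Hochberg) was 0.563. Without KO c the log2 fold change was 0.44, with an edgeR adjusted p (Benjamini-Hochberg) of 0.465.

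Promoter sequences were matched in the RefSeq table of GRCm38.p6 for 4 members (Ctnna2, Ctnnb1, Ctnnd1 and Ctnnd2), with 6 windows of 250 bases before and 50 bases after a start. The T-box half-site core GGTGTGA was searched on both strands (TCACACC on the other) and matched 0 of the 6 windows, where 3.98% of 32851 promoters of the same length held it. No match says only that these letters are absent from these windows. The upstream part for Ctnnd2 is shown as the matched member with the smallest p, and covers 250 bases of the plus strand at chr15:30172284-30172533. Capitals mark its 21 CpG dinucleotides. The whole windows held 28 CpG for Ctnnd2, 38 for Ctnna2, 46 and 51 for Ctnnb1, and 30 and 3 for Ctnnd1, where the median of all promoters was 7.
Ctnnd2: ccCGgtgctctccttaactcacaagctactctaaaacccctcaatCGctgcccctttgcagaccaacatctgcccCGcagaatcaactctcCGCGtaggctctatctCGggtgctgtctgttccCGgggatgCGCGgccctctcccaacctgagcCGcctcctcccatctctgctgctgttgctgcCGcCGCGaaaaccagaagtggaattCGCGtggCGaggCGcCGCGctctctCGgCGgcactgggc

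Ctnna2, the neuronal alpha-catenin, was close in both genotypes. It had 246, 262, 187 and 225 CPM in KO animals a to d, against 251, 200, 219 and 214 CPM in WT animals a to d. Its log2 fold change was 0.06 ± 0.13 (SE), with a 95% interval of -0.22 to 0.34 and an edgeR adjusted p (Benjamini-Hochberg) of 0.982. The sign changed when KO b was left out (-0.0082). The gene spans chromosome 6, 76881637 to 77979699 on the minus strand, with Lrrtm1 inside it on the opposite strand and no shared exonic bases.

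Ctnnb1 had 144, 124, 113 and 135 CPM in KO animals a to d, against 113, 117, 122 and 87.3 CPM in WT animals a to d. The groups overlapped, and WT d was the lowest of the 8 animals. The log2 fold change was 0.24 ± 0.14 (SE), with a 95% interval of -0.07 to 0.54 and an edgeR adjusted p (Benjamini-Hochberg) of 0.835. Its exons on chromosome 9 (120929216 to 120960507) share 759 bp with Ulk4 on the opposite strand, and neither the kit nor any source used here tells how reads of such a pair were assigned.

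Ctnna1 and Ctnnd1, the alpha- and delta-catenin genes used in most tissues, had the lowest levels of the detected members and varied most. Ctnna1 had 22.0, 15.8, 31.2 and 39.6 CPM in KO animals a to d, against 45.8, 12.9, 19.1 and 21.0 CPM in WT animals a to d. The highest and the lowest animal were both WT, and the log2 fold change of 0.14 ± 0.39 (SE) changed sign when KO d or WT b was left out (-0.10 and -0.08). Ctnnd1 had 17.4, 13.7, 19.2 and 20.9 CPM in KO animals a to d, against 15.4, 6.76, 21.2 and 15.7 CPM in WT animals a to d. Its log2 fold change was 0.27 ± 0.35 (SE), and the edgeR adjusted p (Benjamini-Hochberg) was 0.989 for Ctnna1 and 0.957 for Ctnnd1. Pools of the same animal differed by up to 1.46 on the log2 scale for Ctnna1 and up to 1.33 for Ctnnd1, compared with at most 0.62 for the 6 other members. The 95% intervals, -0.72 to 0.99 for Ctnna1 and -0.48 to 1.02 for Ctnnd1, include changes larger than those measured for Cdh4 and Cdh13. Ctnna1, on chromosome 18, shares 95 exonic bp with Lrrtm2 on the opposite strand. Ctnnd1, on chromosome 2 from 84600071 to 84650765, overlaps the annotated gene Gm28635 on the same strand over 4482 exonic bp, and that gene is not in the count files.

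**Figure D3:**
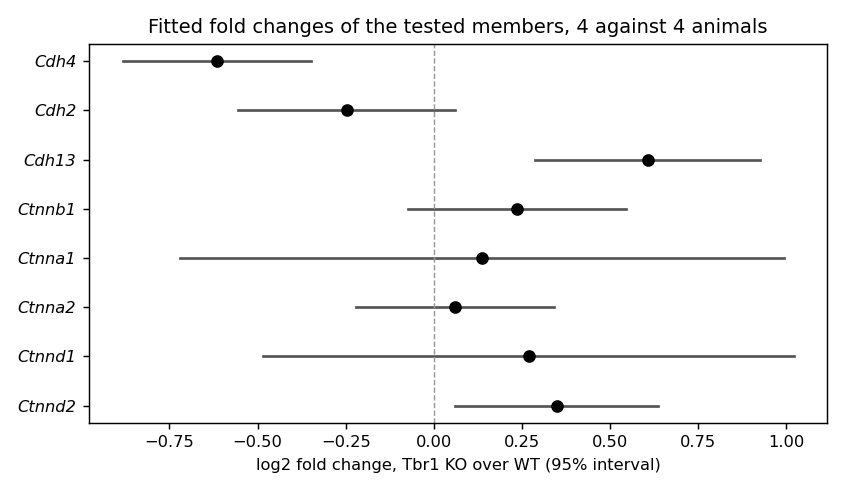
Log2 fold change of Tbr1 KO over WT (x axis) for the 8 tested members, as points with 95% intervals from the edgeR fit over 4 against 4 animals, not adjusted for the number of genes. The intervals of Cdh4, Cdh13 and Ctnnd2 lie to one side of 0, and those of Ctnna1 and Ctnnd1 are the widest.

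Levels of different genes were compared per kb of exon. In KO animals the leading genes were Ctnnd2 at 34.4 ± 4.45, Ctnna2 at 33.1 ± 4.66 and Cdh4 at 30.9 ± 4.95 CPM per kb (SD, n = 4), with overlapping animals. In WT animals Cdh4 led with 45.7 to 49.5 CPM per kb (mean 47.4), and none of the animals overlapped with the next gene, Ctnna2, at 31.8 ± 3.10 CPM per kb (SD, n = 4). Ctnnd2 followed in WT animals at 27.0 ± 3.74 and Ctnnb1 at 21.2 ± 2.96 CPM per kb, and neighbours in that order overlapped. Ctnnb1 in KO animals was at 24.9 ± 2.58 CPM per kb, overlapping Cdh4. Cdh13 at 16.1 ± 2.29 stood above Cdh2 at 10.3 ± 1.25 CPM per kb in KO animals, with no overlap. In WT animals Cdh13 (8.67 to 11.95 CPM per kb) and Cdh2 (10.95 to 13.2 CPM per kb) overlapped. Ctnna1 (4.23 ± 1.63 in KO and 3.85 ± 2.25 CPM per kb in WT animals) and Ctnnd1 (2.43 ± 0.426 in KO and 2.02 ± 0.817 CPM per kb in WT animals) were lowest in both. By level per kb, Cdh4 was above 86.7% of 13432 tested genes with an annotated length in KO animals and above 91.2% of them in WT animals.

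This order depended on the length used, which was chosen as the union of all annotated exons. Per kb of the longest transcript, Cdh13 at 39.7 ± 5.63 came before Cdh4 at 35.1 ± 5.63 CPM per kb in KO animals (SD, n = 4), with overlapping animals. In WT animals Cdh4 (53.8 ± 1.82) and Ctnna2 (53.1 ± 5.17 CPM per kb) then overlapped. Cdh13 (26.1 ± 3.69) came above Cdh2 (20.4 ± 1.77 CPM per kb) in WT animals, also with overlapping animals. Fold changes within a gene do not depend on its length.

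**Figure D4:**
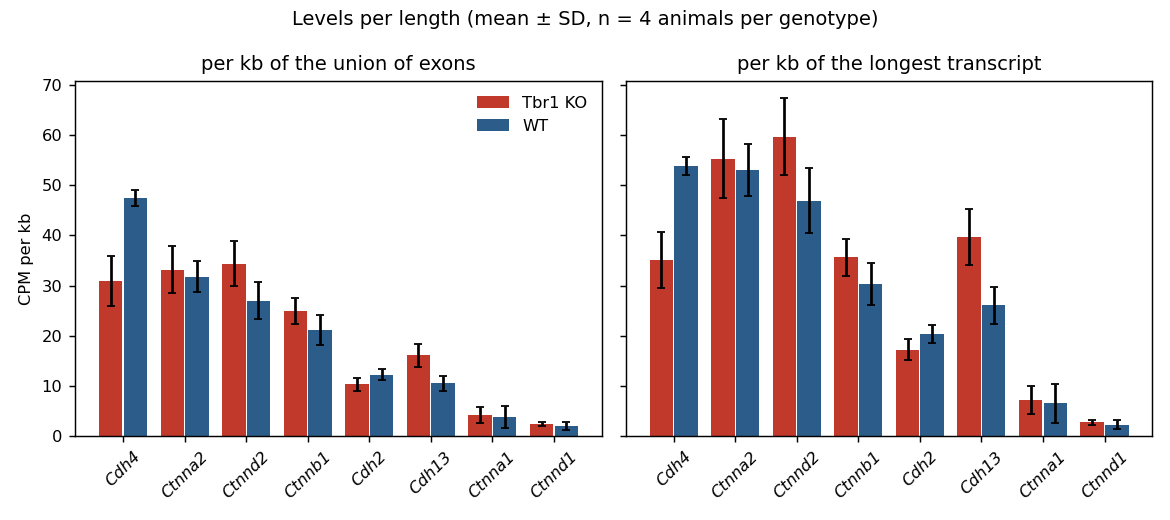
Mean level in CPM per kb (bars from 0, error bars SD, n = 4 animals) of the 8 detected members in Tbr1 KO and WT animals, per kb of the union of exons (left) and of the longest transcript (right). Cdh4 is at 30.9 in KO and 47.4 in WT animals on the left, and Ctnna1 and Ctnnd1 are the lowest on both sides.

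Shares within the groups of related genes were then set out per exonic length. Cdh4 made up 72.0% to 80.5% of the summed type I cadherins in KO animals and 78.0% to 81.3% in WT animals, with Cdh2 making up the rest. The means were 74.7% ± 3.96 in KO animals and 79.4% ± 1.39 in WT animals (SD, n = 4), and the animals overlapped because KO d had the second highest share of the 8. Ctnna2 was 88.5% ± 4.84 of the alpha-catenins in KO animals and 89.7% ± 4.31 in WT animals (SD, n = 4). Ctnnd2 was 93.3% ± 1.70 of the delta-catenins in KO animals and 93.1% ± 2.36 in WT animals (SD, n = 4). In both genotypes the neuronal paralogue was thus the larger share of each catenin pair.

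The genes whose level followed Cdh4 or Cdh13 most closely over the 8 animals were taken from 7771 other genes with a mean of at least 16 CPM, by Pearson correlation of log2 CPM. For Cdh4 they were Stxbp4 (r = 0.985), Habp4 (r = 0.980) and Hdac9 (r = 0.975). For Cdh13 they were Zfp12 (r = 0.973), Dpp10 (r = 0.967) and Mtpn (r = 0.963). These points share libraries and the genotype difference, and only the top of the ranking is named. Hdac9, a histone deacetylase gene, averaged 53.2 CPM in KO animals and 102 CPM in WT animals, with an edgeR adjusted p (Benjamini-Hochberg) of 0.0568.

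The molecules that work with cadherins were followed in 9 lists of 132 genes, of which 116 were tested. In the accounts of these lists, passing refers to the edgeR test unless DESeq2 is named. One gene passed the edgeR test over all genes, the scaffold gene Magi1 (a PDZ-domain protein of cell junctions), which fell. It was the only one of 24 actin-linking and junction scaffold genes with an unadjusted p under 0.05. Magi1 averaged 116 ± 21.4 CPM in KO animals and 251 ± 44.9 CPM in WT animals (SD, n = 4 each), a log2 fold change of -1.12 ± 0.16 (SE). Its edgeR adjusted p (Benjamini-Hochberg) was 0.0114, and it was 0.0552 without KO a, 0.0703 without KO b and 0.0615 without WT b. At an unadjusted p under 0.05 there were 6 genes on the higher and 7 on the lower side of the 116 (11.2%), beside 7.09% of all tested genes. Animals did not overlap for 6 genes on the higher and 7 on the lower side (11.2%), beside 5.06% of all genes. The median log2 fold change of the 116 was 0.05.

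Among 9 tested type II and other classical cadherins none passed in edgeR, and DESeq2 called Cdh8 and Cdh6 (Benjamini-Hochberg adjusted p = 0.0455 and 0.0486). Without overlap, 4 lay below and 1 above the WT animals, beside 2.48% below and 2.58% above over all tested genes. Cdh8 averaged 77.6 ± 16.5 CPM in KO animals and 124 ± 17.4 CPM in WT animals, and Cdh6 averaged 1.68 ± 1.10 CPM in KO animals and 8.44 ± 3.51 CPM in WT animals (SD, n = 4 each). Cdh20 and Cdh10 had log2 fold changes of -0.83 ± 0.30 and 1.12 ± 0.40 (SE). The edgeR adjusted p (Benjamini-Hochberg) of these 4 genes ran from 0.272 to 0.534.

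The destruction complex, which marks beta-catenin for degradation, had 14 tested genes and none passed in edgeR, while DESeq2 called Amer2 (Benjamini-Hochberg adjusted p = 0.0168). Amer2, an APC-binding membrane protein, averaged 195 ± 41.5 CPM in KO animals and 112 ± 33.6 CPM in WT animals (SD, n = 4 each), a log2 fold change of 0.80 ± 0.21 (SE). Axin2, a scaffold of the complex and a common target of Wnt signalling, averaged 6.74 ± 2.35 CPM in KO animals and 12.8 ± 2.19 CPM in WT animals (SD, n = 4 each). Apc2 had a log2 fold change of -0.46 ± 0.19 (SE). None of 13 tested transcription partners and targets of beta-catenin passed or had an unadjusted p under 0.05. Of the 13, 12 had a positive log2 fold change (median 0.26), beside 6967 of all 13957 tested genes. That list mixes cofactors with targets, and the target Axin2, which was on the lower side, is counted with the destruction complex instead. The edgeR adjusted p (Benjamini-Hochberg) was 0.282 for Amer2, 0.593 for Axin2 and 0.611 for Apc2.

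Among 26 genes of cadherin processing, turnover and trafficking none passed. Cbll1, which encodes the E-cadherin ubiquitin ligase Hakai, and Ptprm, a receptor phosphatase that binds cadherins, had log2 fold changes of 0.58 ± 0.24 and 1.04 ± 0.47 (SE). Zbtb33, the p120-catenin partner Kaiso, averaged 6.01 ± 3.12 CPM in KO animals and 1.07 ± 0.606 CPM in WT animals (SD, n = 4 each). Of 8 tested synaptic partners of Ctnnd2 none passed, with log2 fold changes of 1.02 ± 0.40 for Erbb2ip and -0.28 ± 0.12 for Grip1 (SE). The edgeR adjusted p (Benjamini-Hochberg) of these 5 genes ran from 0.469 to 0.689. None of 7 other catenins and armadillo relatives and none of 4 tested Cdh13 partners passed or had an unadjusted p under 0.05, and their median log2 fold changes were 0.04 and -0.07.

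**Figure D5:**
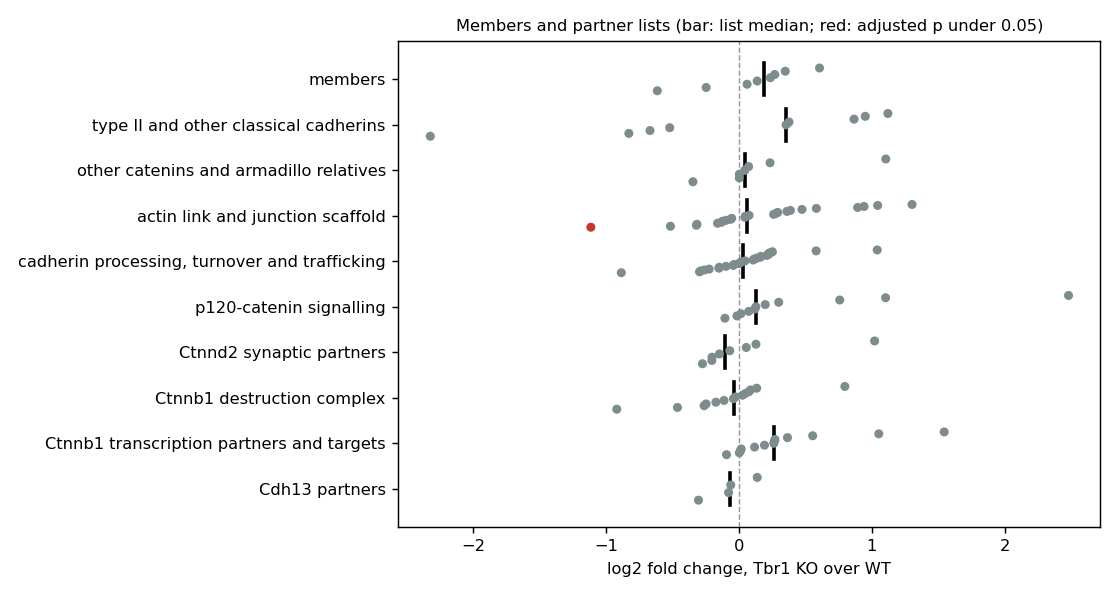
Log2 fold change of Tbr1 KO over WT (x axis) for each tested gene of the members and of the 9 partner lists (rows), with black bars at the list medians and red for an edgeR adjusted p under 0.05. Magi1 at -1.12 is the 1 red point, and the list medians lie between -0.11 and 0.35.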

How the data were processed

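Per the labels' protocols, 11 pools of sorted J-RGCs gave single-end Smart-seq2 libraries tagged with a Nextera XT kit. Each deposited file holds the unnormalised read counts of 1 library by gene symbol. The submitters' processing notes name Trimmomatic 0.32, TopHat2 2.0.10 and HTSeq 0.6.1 with mm10 (GRCm38). No source used here gives the annotation or the strand option. Summary lines that name no gene stayed out of library sizes and tests: reads in no feature were 20.0% to 24.8% and ambiguous reads 1.31% to 1.47% of the listed reads.

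Counts were summed per animal, filtered with filterByExpr (13957 of 24421 genes kept), TMM-scaled and fitted in edgeR 4.0.16 (R 4.3.3) by robust quasi-likelihood; p-values were adjusted by Benjamini-Hochberg over all tested genes, at 0.05. The SE is the log2 fold change divided by the square root of F, and the 95% intervals use the t quantile at the fit's degrees of freedom. Alternatives used DESeq2 1.42.0, limma 3.58.1 voom, other scalings and units of replication. Figures were drawn with matplotlib 3.10.9.

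Lengths and positions came from GENCODE M21 (GRCm38). The members, the lists and the naming rule were chosen with earlier results of these data known. The rule names all members, Tbr1, list genes past the threshold or up to 4 per list with the smallest p (here those with an unadjusted p under 0.05), and the 3 genes most like Cdh4 and Cdh13. Jam2 and the cell type markers named with values fall outside it and were chosen after their values were seen. One photoreceptor marker of the planned list is not reported here and was left out of the sum. Promoter entries for Cdh1, Cdh2, Cdh3, Cdh4, Cdh13 and Ctnna1 were not used here.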

Additional observations from a re-analysis of the deposited data

How the results depend on the processing

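The count of members past the threshold was 0 in the edgeR fit on animal sums and 2 (Cdh4 lower, Cdh13 higher) with DESeq2, with each library as a replicate and with limma voom. In that order, Cdh4 had log2 fold changes of -0.61, -0.60 and -0.62 and Cdh13 0.61, 0.67 and 0.63. The fit with each library as a replicate treats pools of 1 animal as independent, so its calls are not separate support. All of these fits use the same reads. Over all genes the count was 40, against 156 with DESeq2, 84 with each library as a replicate, 76 with voom and 17 (without KO b) to 44 (without WT a) when 1 animal was left out. For the partner lists it was 1, against 4 with DESeq2 (Magi1, Amer2, Cdh6 and Cdh8) and 0 to 1 without 1 animal. Without 1 animal the log2 fold change ran from -0.10 to 0.63 for Ctnna1 and from -0.0082 to 0.15 for Ctnna2. All other members kept their direction in all 15 alternatives. The median log2 fold change of all genes was at most 0.018 in size in any alternative.

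With the longest transcript as length, the Cdh4 share was 66.9% in KO and 72.5% in WT animals, and the Ctnnd2 share in KO animals 95.4%; that length for levels was added after the data were seen.

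No pairing of libraries by replicate number was seen: same-numbered libraries correlated at -0.12 to 0.07 and 1 of 5 matched its own number best. So few pairs, some from pools of the same animal, cannot show that no pairing exists. With the number as a replicate block on libraries 1 to 5, log2 fold changes were -0.67 for Cdh4, 0.67 for Cdh13 and -0.046 for Ctnna1. The edgeR adjusted p (Benjamini-Hochberg) was 0.0747 for Cdh4 and 0.163 for Cdh13, and 45 genes were called. That fit left out KO library 6, the only library of KO d, which had the highest Cdh4 level of the KO animals. It also treated pools of 1 animal as independent.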
